A study of Homo sapiens with 12 samples.

Results

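Condensin I and condensin II are the ring complexes that fold chromatin into mitotic chromosomes. Their 8 subunits, NCAPG2, NCAPD3, NCAPH2, NCAPG, NCAPD2, NCAPH, SMC2 and SMC4, were followed in HUH6 cells after silencing of the transcription factor GATA4. The set was built around NCAPG2, which was chosen by its log2 change between GATA4 siRNA and the control siRNA in earlier results of these arrays, and the other 7 genes were added because they are the remaining subunits. The 8 genes are among 20045 named genes on the array and have 15 of its 48106 probes. Of 10196 genes tested, 7 are condensin subunits, and the untested one is NCAPH. HUH6 is an established cell line from a hepatoblastoma, an embryonal liver tumour. In both groups the cells were transfected with siRNA at 0.1 uM for 6 h and lysed 72 h after transfection began. One group (6 samples) received a pool of siRNAs against GATA4, and the control group (6 samples) received a non-targeting siRNA, called NT siRNA. Total RNA was read on Illumina HT-12 v4 expression beadchips.

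Condensins are ATP-driven motors that extrude loops of DNA and so shorten and stiffen chromosomes before they are segregated. SMC2 and SMC4 form the coiled-coil ATPase core that both complexes share. A kleisin subunit closes the ring (NCAPH in condensin I, NCAPH2 in condensin II), and a pair of HEAT-repeat subunits binds DNA and regulates the motor (NCAPD2 and NCAPG in condensin I, NCAPD3 and NCAPG2 in condensin II). Condensin II is nuclear throughout the cell cycle and acts from prophase, whereas condensin I gains access to chromosomes once the nuclear envelope breaks down. Transcripts of several subunits are known to peak in G2 and mitosis, as do those of many other mitotic genes.

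On the 12 arrays 16067 to 16804 probes were detected, and the median raw signal was 117.4 to 121.2 with NT siRNA and 120.8 to 128.1 with GATA4 siRNA. GATA4 was above background in 6 of 6 NT siRNA samples (137.1 to 168.8 raw units) and in 0 of 6 samples given GATA4 siRNA (108.3 to 119.3). Its probe read near background with NT siRNA too, with a detection p of up to 0.00909 against a limit of 0.01. Irrespective of siRNA, the arrays parted into replicates 1 to 3 and replicates 4 to 6 along the first principal component, which held 57.3% of the variance. The labels and files name no chip, date or batch for these sets, which were defined after the arrays were seen. Whether replicates were separate cultures is not stated in the labels. The p-values therefore cover no more than the spread among these 12 samples, and the number of arrays limits the precision. Of 10 hepatoblastoma and hepatocyte markers, AFP, ALB, GPC3, APOA1, APOB, TTR and KRT8 were detected on 12 arrays, whereas DLK1 was detected on 0 and KRT18 on 1, and HNF4A had no named probe. The fibroblast markers COL3A1, DCN, LUM and THY1, the endothelial markers VWF, CDH5 and KDR and the leukocyte markers PTPRC and CD3E were detected on 0 arrays. COL1A2, PDGFRB, PECAM1, CD68, CD14, CSF1R and CD3D, which are listed for the same cell types or for macrophages, were detected on 12. PDGFRA was detected on 10, CD163 on 6, COL1A1 on 4 and CD79A on 2.

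Promoters of the subunits were read from RefSeq (GRCh38.p14) as windows of 250 bases before to 50 bases after each start, which were at hand for 7 of the 8 genes, with 10 windows in all. They are shown because silencing a DNA-binding factor raises the question of which letters these promoters carry. The cell cycle genes homology region (CHR), TTTGAA, is the element through which MuvB complexes silence or switch on genes of G2 and mitosis. It was found on either strand in 6 of the 10 windows, those of 6 genes, and in 15.2% of all 35116 windows. In the lines that follow, each with 30 bases on the gene's own strand, the CHR letters are in capitals, and TTCAAA is the same element on the opposite strand.
NCAPG2 (chr7:158704755-158704784, minus strand): gcgccggcgggtgcgTTTGAAtctggtccg
NCAPD3 (chr11:134223953-134223982, minus strand): gcgggagcgagcTTTGAAagttgagcacgg
NCAPG (chr4:17810932-17810961, plus strand): tcgcgggaattaTTTGAAcgttcgagcggt
NCAPD2 (chr12:6493945-6493974, plus strand): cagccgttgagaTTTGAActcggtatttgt
SMC2 (chr9:104094294-104094323, plus strand): ctcgcgccgaaaTTCAAAggaataaatagt
SMC4 (chr3:160399563-160399592, plus strand): gccgcactttttTTCAAAttagtggatccc
The element lay from 36 to 41 bases after the start in NCAPG2, from -3 to 3 in NCAPD3 and SMC2, from -35 to -30 in NCAPG, from -75 to -70 in SMC4 and from -145 to -140 in NCAPD2. The window of NCAPH and the other windows of NCAPD3, SMC2 and SMC4 were without these letters, and NCAPH2 had no window at hand.

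GATA factors bind GATA preceded by A or T and followed by A or G. These letters (AGATAA and the forms that begin with T or end with G, on either strand) were in 2 of the 10 windows, against 25% of all windows. They stood from -196 to -191 in SMC2 and from -95 to -90 in SMC4, and no match was found in the window of NCAPG2 or NCAPD2. The letters CCAAT, which NF-Y binds and which read ATTGG on the opposite strand, were in 3 of the 10 windows (NCAPD2, NCAPD3 and NCAPH), against 34.6% of all windows. No match of one element overlapped a match of another. A match of letters is not a bound site, and a window without them says nothing of more distant sites. The 250 bases upstream of the start are given for NCAPG2 (chr7:158704805-158705054, minus strand), which carry none of the 3 elements, and for NCAPD2 (chr12:6493852-6494101, plus strand), with the CHR letters and 4 copies of ATTGG in capitals.
NCAPG2: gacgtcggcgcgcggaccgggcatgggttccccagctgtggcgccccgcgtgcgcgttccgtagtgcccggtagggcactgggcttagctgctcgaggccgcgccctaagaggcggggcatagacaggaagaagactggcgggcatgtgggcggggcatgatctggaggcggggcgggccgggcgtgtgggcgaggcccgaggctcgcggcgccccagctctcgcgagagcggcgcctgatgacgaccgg
NCAPD2: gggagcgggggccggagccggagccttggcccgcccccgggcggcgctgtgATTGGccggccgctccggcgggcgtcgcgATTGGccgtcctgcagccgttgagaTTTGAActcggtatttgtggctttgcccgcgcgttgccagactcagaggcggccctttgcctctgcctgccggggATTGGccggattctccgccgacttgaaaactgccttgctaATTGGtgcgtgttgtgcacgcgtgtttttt
The full window of NCAPG2 was 74.3% G and C, and that of NCAPD2 64.7%.

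Of the 15 condensin probes, 8 were detected on all 12 arrays and stand for 7 genes. Testing required a detection p below 0.01 on 6 or more arrays. NCAPG2 has 2 probes annotated to the same transcript. ILMN_2066756 read 252.4 to 480.6 raw units over the 12 arrays, with a detection p of 0 on each, whereas ILMN_1669826 read 99.5 to 110.5 and was at background on all 12. The values of NCAPG2 therefore rest on a single probe. NCAPH2 has 3 probes, of which only ILMN_1715908 (225.3 to 343 raw units) was detected, and SMC4 has 3, of which only ILMN_2330861 (1582.8 to 2058.3) was detected. SMC2 has 3 probes, 2 of them detected on 12 arrays, and the third, ILMN_2296422, on 3 arrays. NCAPD3, NCAPG, NCAPD2 and NCAPH have 1 probe each. The probe of NCAPH, the condensin I kleisin, read 116.6 to 140.2 and was detected on 1 of 12 arrays, so NCAPH was not well above background in either group.

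**Figure D1:**
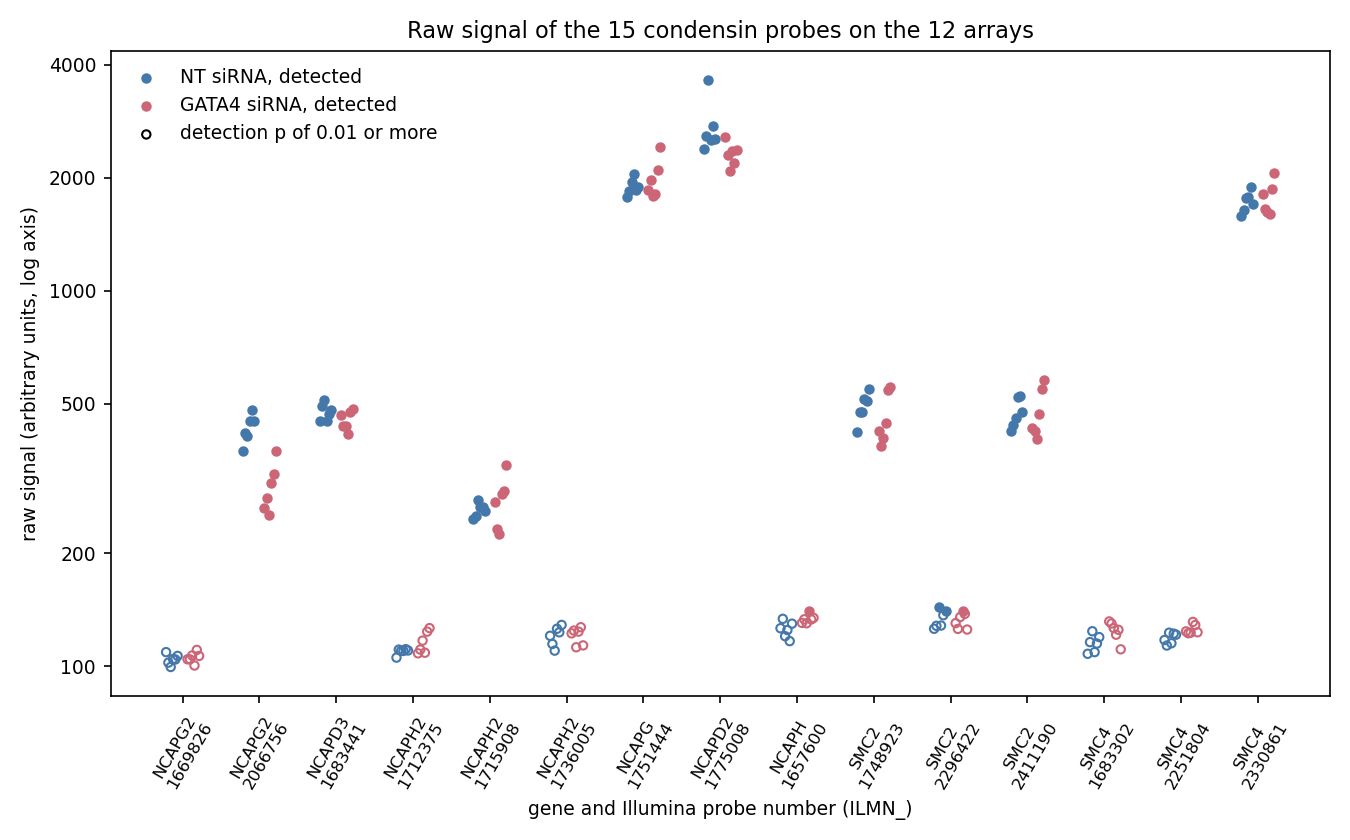
Raw signal (log axis, arbitrary units) of the 15 condensin probes on the 12 arrays, 1 point per array, NT siRNA in blue and GATA4 siRNA in red, with open circles where the detection p was 0.01 or more. Levels of different probes are not comparable, and within probe ILMN_2066756 of NCAPG2 the GATA4 siRNA arrays lie at 252.4 to 373.9 against 373.2 to 480.6 with NT siRNA.

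Values from here on are log2 signals after background correction and quantile normalisation (neqc in limma), and a change is GATA4 siRNA minus NT siRNA. Among the condensin II subunits, NCAPG2, a HEAT-repeat subunit, read 8.16, 8.37, 8.26, 8.55, 8.58 and 8.56 in NT siRNA replicates 1 to 6. In GATA4 siRNA replicates 1 to 6 it read 7.29, 7.47, 7.35, 7.87, 7.71 and 7.86. Every sample given GATA4 siRNA lay below every NT siRNA sample, and in both groups replicates 1 to 3 lay below replicates 4 to 6. The NT siRNA mean was 8.41 ± 0.18 and the GATA4 siRNA mean 7.59 ± 0.26 (SD, n = 6 each), a log2 change of -0.82 (SE 0.12), or 1.77-fold lower. Paired by replicate number, the 6 differences ran from -0.91 to -0.67. Across genes, same-numbered samples were no more alike than other samples of their set, so pairs here and below are by label only. Before normalisation the groups met, the highest GATA4 siRNA array (373.9 raw units) lying just above the lowest NT siRNA array (373.2). On the authors' normalised log2 values, which lie within 0.0165 of quantile-normalised signals without background correction, the change was -0.59. NCAPG2 was chosen for this contrast, so its change is given as a description with no test. In RNA from whole cultures, fewer cells carrying a transcript and less of it per cell cannot be told apart.

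NCAPD3, the other HEAT-repeat subunit of condensin II, ranged from 8.50 to 8.68 with a median of 8.61 with NT siRNA. With GATA4 siRNA it ranged from 8.36 to 8.49 with a median of 8.46. The groups did not overlap, and NCAPD3 was lower after GATA4 siRNA in 6 of 6 pairs. Its log2 change was -0.16 (SE 0.054, 95% interval -0.28 to -0.047). This did not pass limma's test over all genes (adjusted p = 0.262, and 0.115 with the replicate number as a block). With the 2 replicate sets as the block the limma adjusted p was 0.0665, still not a call. Of all genes tested, 1.68% had groups that did not overlap. NCAPH2, the condensin II kleisin, ranged from 7.30 to 7.50 with NT siRNA (median 7.42) and from 7.02 to 7.72 with GATA4 siRNA (median 7.44). The GATA4 siRNA samples spread to both sides of the NT siRNA samples. The mean was 7.40 ± 0.077 (SD, n = 6) against 7.39 ± 0.30 (SD, n = 6), a log2 change of -0.0062 (SE 0.12, 95% interval -0.26 to 0.25, limma adjusted p = 0.999).

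Of the condensin I subunits, NCAPD2, a HEAT-repeat subunit, ranged from 11.19 to 11.79 with NT siRNA (median 11.33). With GATA4 siRNA it ranged from 10.93 to 11.29 (median 11.06). The groups overlapped, since GATA4 siRNA replicates 1 and 4 (11.21 and 11.29) lay above the lowest NT siRNA sample, replicate 1 at 11.19. NT siRNA replicate 3, at 11.79, stood apart from the other 5 samples of its group, which read 11.19 to 11.37. The log2 change was -0.30 (SE 0.093, 95% interval -0.50 to -0.099) and did not pass limma's test without a block (adjusted p = 0.232). With the replicate number as a block NCAPD2 fell (limma adjusted p = 0.0108), by the same amount, and was lower after GATA4 siRNA in 5 of 6 pairs. Without NT siRNA replicate 3 the change was -0.20 with the block and stayed past the threshold. Leaving out each of the 12 samples in turn, the blocked adjusted p ran from 0.00343 to 0.0455. In the blocked fit a sample without its partner no longer informs the change, so each leave-out in effect drops 1 of the 6 pairs. It was 0.0564 with no filter on dim probes, 0.143 without a mean-variance trend and 0.0828 with a robust fit, each of which ended the call. NCAPG, the other HEAT-repeat subunit of condensin I and a proliferation marker in many tumours, ranged from 10.75 to 11.00 with NT siRNA (median 10.81) and from 10.71 to 10.97 with GATA4 siRNA (median 10.89). The groups overlapped almost fully, with a log2 change of 0.022 (SE 0.058, 95% interval -0.10 to 0.15, limma adjusted p = 0.976).

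SMC2, an ATPase of the shared core, ranged from 8.40 to 8.81 with NT siRNA (median 8.56) and from 8.31 to 8.72 with GATA4 siRNA (median 8.50). The groups overlapped, and each split by replicate set. The log2 change was -0.078 (SE 0.10, 95% interval -0.30 to 0.14, limma adjusted p = 0.925, and 0.480 with the replicate block). At the second detected SMC2 probe, ILMN_1748923, the mean was 8.65 ± 0.19 with NT siRNA and 8.44 ± 0.22 with GATA4 siRNA (SD, n = 6 each), a change of -0.20. Its mean level lies close to that of the first probe. It therefore replaced the first probe under other settings, where the change ran to -0.20, with no call. SMC4, the partner ATPase, ranged from 10.57 to 10.81 with NT siRNA (median 10.70) and from 10.60 to 10.73 with GATA4 siRNA (median 10.69). The GATA4 siRNA samples lay inside the range of the NT siRNA samples, with a log2 change of -0.017 (SE 0.052, 95% interval -0.13 to 0.094, limma adjusted p = 0.981).

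**Figure D2:**
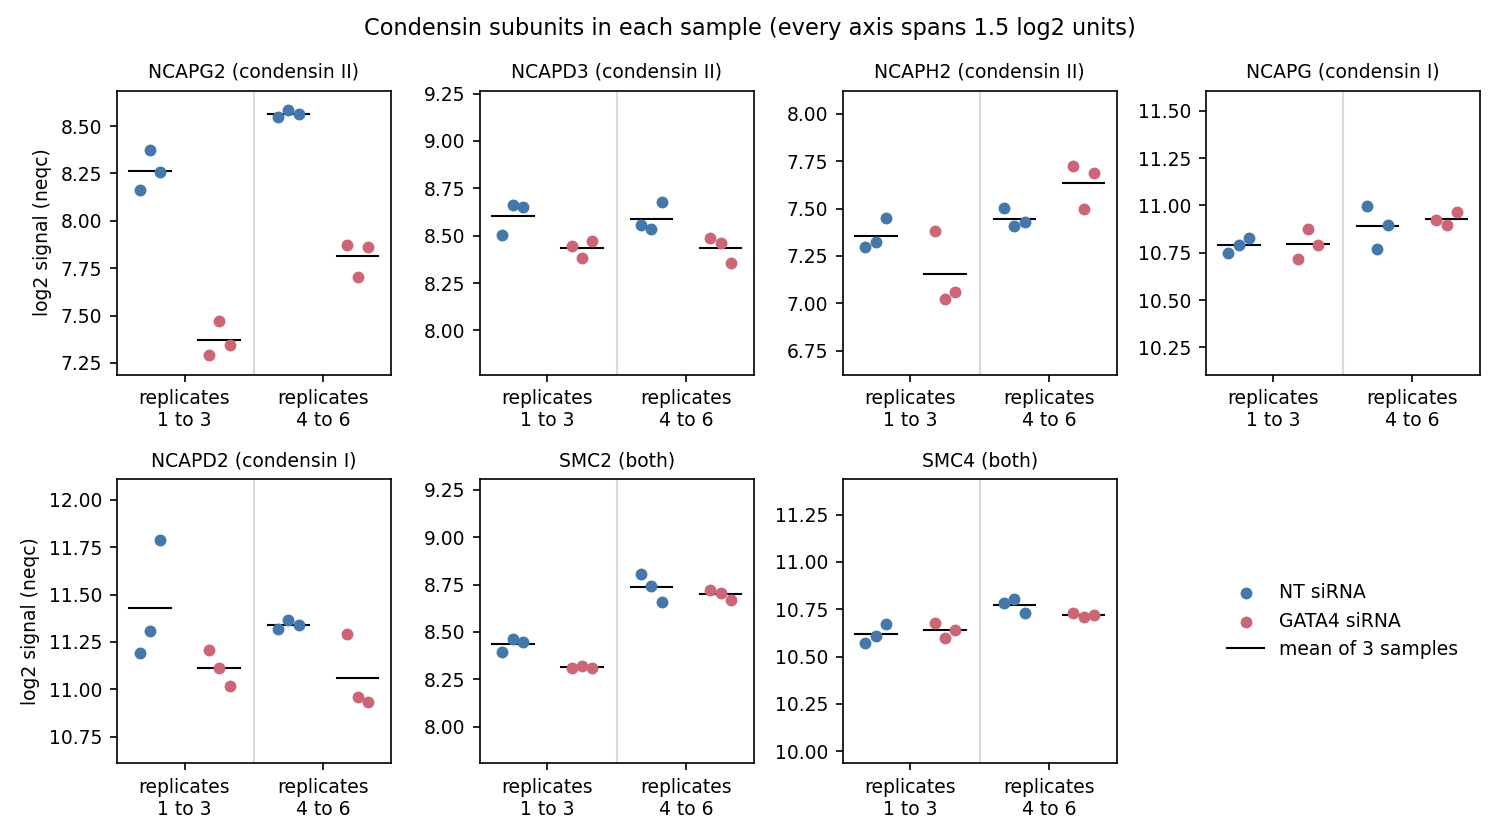
Log2 signal of the 7 tested condensin subunits in each of the 12 samples, by siRNA (NT siRNA blue, GATA4 siRNA red) and by replicate set, with a bar at the mean of 3 samples. Every axis spans 1.5 log2 units, and NCAPG2 has no GATA4 siRNA sample as high as its lowest NT siRNA sample, 8.16. The groups of NCAPD3 do not overlap either, and the same holds for 1.68% of all genes tested.

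Of the 6 tested subunits other than NCAPG2, 0 passed limma's test of GATA4 siRNA against NT siRNA, and 2 (NCAPD3 and NCAPD2) had an unadjusted p below 0.05. Over all 10196 genes 0.706% were called, 20 higher and 52 lower, and 974 lay below 0.05 before adjustment. Of all genes 0.196% were called higher and 0.51% lower. With the replicate block 1 of the 6, NCAPD2, was called, against 6.41% of all genes (3.77% lower). With the 2 replicate sets as the block NCAPD2 was again the one called (adjusted p = 0.00909), against 7.69% of all genes (3.29% higher and 4.4% lower). The median log2 change of the 6 was -0.048, and that of all genes tested was 0.0020. NCAPG2 minus the mean of the other 6 subunits went from -1.17 ± 0.14 in the NT siRNA samples to -1.90 ± 0.17 in the GATA4 siRNA samples (SD, n = 6 each), a shift of -0.73. Against the mean of its condensin II partners NCAPD3 and NCAPH2 the shift was -0.74. Both shifts hold the change that NCAPG2 was chosen for and were not tested.

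Of the tested markers, only ALB and COL1A2 were called in the fit that called NCAPD2. That fit called 3.77% of all genes lower and 2.65% higher. ALB and COL1A2 have 2 probes each, and only the brightest tested probe of each was read. With the block ALB was lower (log2 change -0.23, limma adjusted p = 0.00580), as 1 of 7 tested hepatocyte markers. COL1A2 was higher (0.22, adjusted p = 0.0187), as 1 of 3 tested fibroblast and stellate markers of 8 listed. The mean level of those 3 markers was 7.81 to 7.95 over the NT siRNA samples and 7.93 to 8.17 over the GATA4 siRNA samples, while COL3A1, DCN, LUM and THY1 were at background. Their part in the result for NCAPD2 was not tested.

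**Figure D3:**
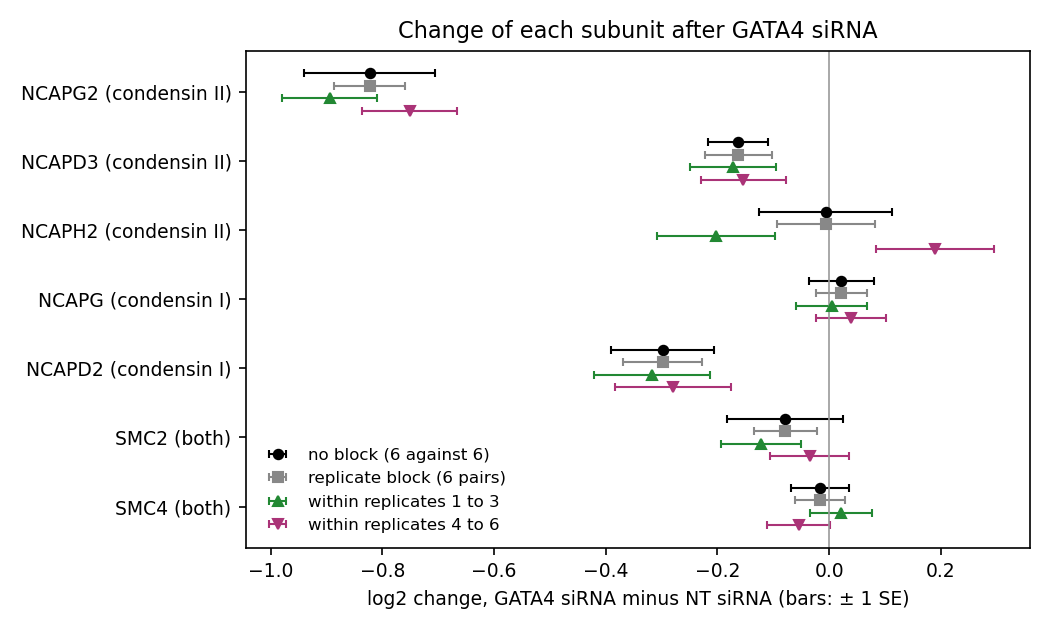
Log2 change after GATA4 siRNA of the 7 tested subunits, with 1 SE either side, without a block, with the replicate number as a block, and within each replicate set. NCAPG2 lies at -0.82 and NCAPD2 at -0.30, and the values within the sets fall on either side of 0 for NCAPH2 (-0.20 and 0.19) and SMC4 (0.022 and -0.055).

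The change after GATA4 siRNA was also read within each replicate set. For NCAPG2 it was -0.89 within replicates 1 to 3 and -0.75 within replicates 4 to 6, both as a description. A limma interaction test gave no call for a difference between these changes (0.14, SE 0.12, adjusted p = 0.765). NCAPD2 changed by a similar amount in each set, -0.32 and -0.28, and neither value passed the test there (adjusted p = 0.106 and 0.144). NCAPH2 had a change of -0.20 within replicates 1 to 3 and of 0.19 within replicates 4 to 6. The difference of 0.39 (SE 0.15) had an unadjusted p of 0.0146 and an adjusted p of 0.461. The interaction test called 0 of the 7 subunits and 0% of all genes, with 901 genes at an unadjusted p under 0.05. Of the 6 other subunits 0 were called within replicates 1 to 3, against 3.01% of all genes (1.25% higher, 1.77% lower), and 0 within replicates 4 to 6, against 4.11% (1.45% higher, 2.66% lower). Leaving out 1 sample could bring NCAPD2 past the threshold. Without NT siRNA replicate 1 its change within replicates 1 to 3 was -0.44 (adjusted p = 0.0314). Within replicates 4 to 6 the adjusted p was 0.0401 without GATA4 siRNA replicate 4 and 0.0344 without NT siRNA replicate 3. NT siRNA replicate 3 lies outside that set. Without it the change stayed at -0.28, and only the SE shrank, from 0.10 to 0.075.

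More subunits passed the test between the replicate sets than between the siRNAs. In replicates 4 to 6 against replicates 1 to 3, with siRNA in the fit, 5 of the 7 tested subunits were higher and 0 were lower. This comparison played no part in the choice of NCAPG2. The sets were themselves drawn from these arrays, however, so the p-values and calls between them describe a split already seen and do not test it. Over all genes 25.9% were higher, 25.2% lower and 51.1% called in either direction, so a call here is common. NCAPG2 was higher by 0.37 (SE 0.062, limma adjusted p = 1.61e-05), with NT siRNA means of 8.26 ± 0.10 and 8.57 ± 0.018 and GATA4 siRNA means of 7.37 ± 0.092 and 7.81 ± 0.094 (SD, n = 3 each). SMC2 was higher by 0.34 (adjusted p = 3.73e-06) and NCAPH2 by 0.29 (adjusted p = 0.00569). SMC4 (0.12, adjusted p = 0.0181) and NCAPG (0.12, adjusted p = 0.0316) differed less. Scaling arrays to equal medians ended the calls of SMC4 (adjusted p = 0.219) and NCAPG (0.236). The call of NCAPG was also lost without a mean-variance trend (0.0603) and without any one of NT siRNA replicates 1 (0.0595) and 4 (0.0959) and GATA4 siRNA replicates 1 (0.0871) and 6 (0.0692). NCAPD2 (-0.069, adjusted p = 0.446) and NCAPD3 (-0.0074, adjusted p = 0.921) were not called. The median difference of the 7 was 0.12, and that of all genes 0.014.

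Markers of other cells differed between the sets as well, in a comparison where 25.2% of all genes were lower and 25.9% higher. The macrophage markers CD68, CD14 and CSF1R, each detected on 12 arrays, were lower in replicates 4 to 6. CD163, also tested, was detected on 6 arrays, the fewest that the filter admits. It may thus have been tested only through the set where it was higher, so no weight is put on its call. CD3D, the 1 tested lymphocyte marker of 4, was lower too, while PTPRC was detected on 0 arrays. Of the 3 tested fibroblast and stellate markers 2 were lower (COL1A2, -0.68, and PDGFRB, -0.25) and PDGFRA was higher (0.81), with a mean level of 7.85 to 8.17 in replicates 1 to 3 and 7.81 to 8.07 in replicates 4 to 6. The 1 tested endothelial marker, PECAM1, was not called (0.014). Of the 7 tested hepatocyte markers 5 were lower, with a mean level of 13.49 to 13.58 against 13.32 to 13.41. Their part in the difference of the subunits was not tested.

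**Figure D4:**
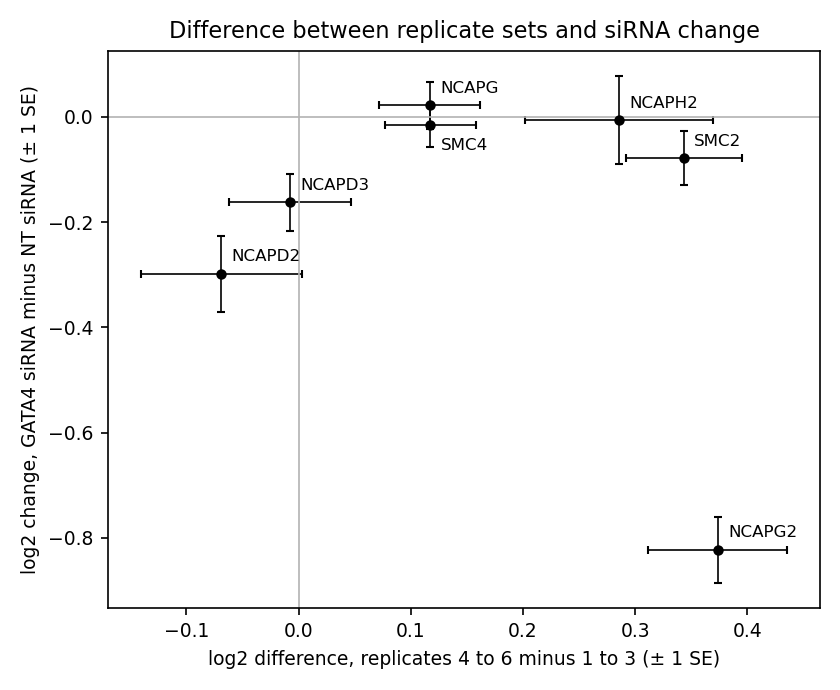
Log2 difference between replicates 4 to 6 and replicates 1 to 3 (horizontal) against the log2 change after GATA4 siRNA (vertical) for the 7 tested subunits, both from the fit of siRNA and set, with 1 SE either side. NCAPG2 and SMC2 lie at 0.37 and 0.34 on the horizontal axis but at -0.82 and -0.078 on the vertical one.

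The subunits were also compared array by array, as a description over 12 arrays that share the siRNA groups and replicate sets. Pearson's r with NCAPG2 ran from 0.213 (NCAPG) to 0.724 (NCAPD3) over the values. After the mean of each siRNA and set was taken away it ran from -0.064 (NCAPH2) to 0.384 (NCAPG). Among the other subunits the highest values for such deviations were 0.680 between NCAPD2 and SMC4 and 0.640 between NCAPH2 and SMC4. The genes whose values were most like those of NCAPG2 were HNRNPH3, an RNA-binding protein (r = 0.967), KARS1, lysyl-tRNA synthetase (0.938), WDR5, a subunit of histone methyltransferase complexes (0.936), S1PR3, a receptor for sphingosine 1-phosphate (0.934), and DANCR, a long noncoding RNA (0.932). Their own changes after GATA4 siRNA were -0.89, -0.39, -0.46, -0.58 and -0.25, and none of the 5 is a condensin subunit. The values that picked them hold the siRNA change of NCAPG2, so falls among them follow from the choice. For deviations the 5 most alike were TM4SF4 (0.983), POLR1F (0.941), ITGB2 (0.929), MCCC1 (0.926) and MORF4L2-AS1 (0.921). These lists are the highest of 10196 genes, so high values are partly a matter of choice.

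The tested genes nearest to NCAPG2 on chromosome 7, 1 on either side, did not pass the test. DNAJB6, a co-chaperone, had a log2 change of 0.036 (limma adjusted p = 0.902, and 0.709 with the replicate block). ESYT2, a tether between the endoplasmic reticulum and the plasma membrane, had one of 0.088 (adjusted p = 0.923, and 0.352 with the block).

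Other genes that act with condensin were read from 6 lists. Without a block 0 members of any list passed limma's test, against 0.706% of all genes. With the replicate block 4 genes passed, against 6.41% (2.65% higher and 3.77% lower). Among 14 tested genes of cohesin and its regulators, the sister SMC complex that holds sister chromatids together, RAD21, the cohesin kleisin, was higher with the block (log2 change 0.19, adjusted p = 0.0354) and not without it (0.525). Its other tested probe went the opposite way, by -0.44, so no direction is given for RAD21. The median log2 change of that list was -0.053. Of 7 tested genes of the SMC5/6 complex, which guards replication and repair, 0 passed. Their median was 0.050, and SLF2, the member with the lowest p without the block, had a change of 0.070. With the block NSMCE4A (-0.063) had the lowest p.

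Of 12 tested kinases and other regulators of condensin 0 passed with the block, with a median of -0.042. They hold CDK1 and PLK1, which phosphorylate condensin subunits in mitosis and had changes of -0.035 and -0.015. INCENP, the scaffold of the chromosomal passenger complex, had the lowest p without the block (log2 change -0.33, limma adjusted p = 0.546, and 0.127 with the block). With the block the lowest was that of BUB1, a spindle checkpoint kinase (-0.13, adjusted p = 0.119). Of 9 tested genes of mitotic chromosome structure, topoisomerase TOP2A (-0.075) and the kinesin KIF4A (0.014) included, 0 passed. Their median was -0.075, and the lowest p in either fit was that of RCC2, which associates with mitotic centromeres (-0.10, adjusted p = 0.830, and 0.149 with the block). Of 25 tested centromere and kinetochore genes 0 passed. Their median was -0.0099, and CENPI, of the inner kinetochore, had the lowest p without the block (-0.24, adjusted p = 0.254, and 0.0921 with the block). With the block the lowest was that of NSL1, of the outer kinetochore (-0.15, adjusted p = 0.0886).

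In the list of G2 and mitosis, 3 of 29 tested genes fell with the replicate block and 0 rose, against 3.77% lower and 2.65% higher of all genes. LMNB1, which encodes lamin B1 of the nuclear envelope, fell by 0.31 on the log2 scale (limma adjusted p = 0.00860). PBK, a mitotic kinase, had a change of -0.26 (adjusted p = 0.0114), and ANLN, the contractile ring protein anillin, one of -0.20 (adjusted p = 0.0261). Without the block their adjusted p-values were 0.434, 0.243 and 0.302. The median of the list was -0.039, and its mean level was 10.09 to 10.25 over the NT siRNA samples and 10.01 to 10.23 over the GATA4 siRNA samples, which overlap. CCNA2 (-0.094), CDC20 (-0.039), TPX2 (-0.012) and FOXM1 (-0.11), which drive or mark the passage through G2 and mitosis, were not called. The medians of the 6 lists lay between -0.075 and 0.050. In replicates 4 to 6 against replicates 1 to 3, the lists had more calls: 18 of 29 genes of G2 and mitosis, 17 of 25 centromere and kinetochore genes, 7 of 9 of mitotic chromosome structure, 7 of 12 regulators, 7 of 14 of cohesin and 2 of 7 of SMC5/6 were higher, against 25.9% of all genes. Lower in replicates 4 to 6 were 1 regulator, the phosphatase subunit PPP2CA (-0.15, limma adjusted p = 0.00163), and 1 cohesin gene, STAG1 (-0.28, adjusted p = 0.000156), against 25.2% of all genes.

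**Figure D5:**
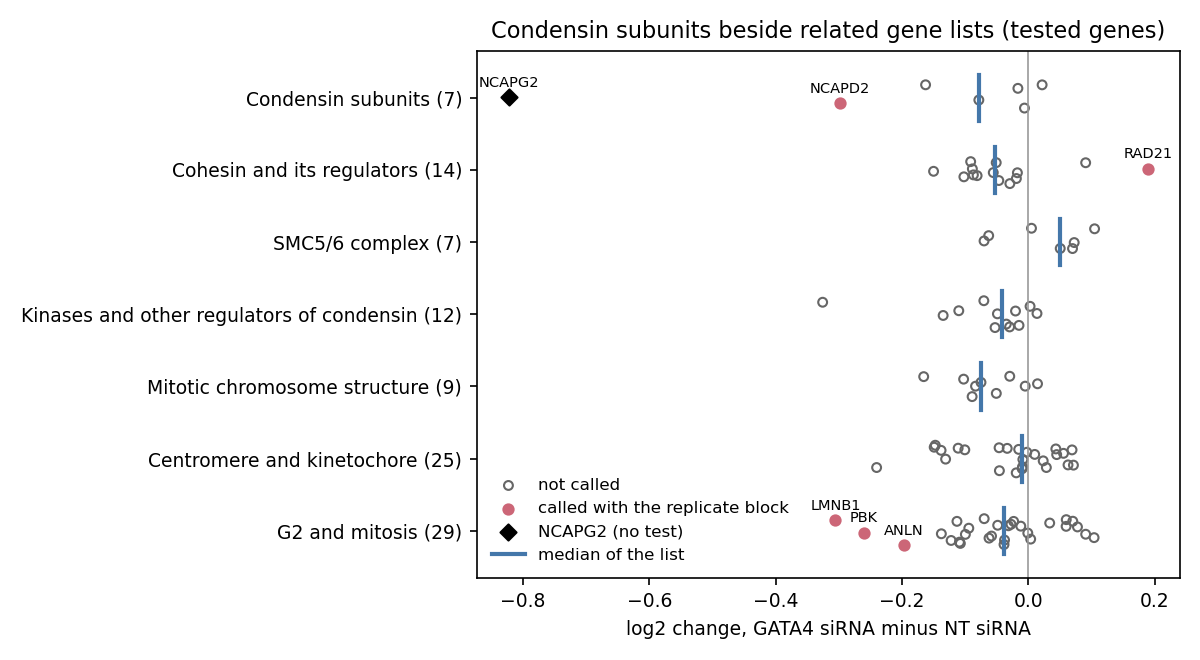
Log2 change after GATA4 siRNA of each tested gene in the condensin set and in 6 related lists, 1 point per gene with the number tested in brackets, filled where called with the replicate block, and a bar at each list's median. NCAPG2 lies at -0.82, apart from genes of the 6 lists, among which INCENP has the lowest value, -0.33.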

How the data were processed

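RNA was read on Illumina HT-12 v4 beadchips. Per the file headers, the deposited scanner table pairs a linear intensity with a detection p-value for every probe on every array. The submitters' processing notes name GenomeStudio without a version. The lowest intensity was 82.2, so background had not been subtracted to zero. The authors' table of normalised log2 values, whose method no source used here states, lay within 0.0165 of log2 quantile-normalised intensities and served as an alternative.

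Probe names came from GEO's platform annotation, and symbols were updated by gene ID in RefSeq (GRCh38.p14), which matched 30073 probes. Of 48106 probes 30112 have 1 symbol, 8 several and 17986 none. Intensities were normalised by limma's neqc (limma 3.58.1, R 4.3.3; offset 16, then quantiles and log2). Probes detected at p below 0.01 on 6 or more of 12 arrays were tested (16339, of which 13201 have 1 symbol), and the brightest such probe by mean stood for its gene (10196 genes). Linear models were fitted with lmFit, variances were moderated with eBayes along a trend in mean signal, and two-sided p-values were adjusted by Benjamini and Hochberg's method across the 10196 genes, with calls below 0.05. NCAPG2 received no test in the siRNA contrast. The fitting code was run on simulated arrays with planted changes and independent noise, without replicate pairs. That run checks the code and not whether these samples meet the assumptions of the fits.

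The subunits, lists and named genes were chosen with earlier results of these data known. The rule named the 8 subunits with every probe, GATA4, the tested neighbours of NCAPG2 and the 5 genes most like it by each measure. In each list it named at most 3 called genes per direction, taken by lowest p with the block, and failing these the gene of lowest p. CDK1, PLK1, TOP2A, KIF4A, CCNA2, CDC20, TPX2, FOXM1 and the markers were named for their known roles, and BUB1, NSL1, NSMCE4A, PPP2CA and STAG1 for their p-values, all after their values were seen. Other probes of these genes were not compared. Among them ALB, COL1A2, STAG1 and PPP2CA have 2 probes each and NSL1 has 5.

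The replicate block treated same-numbered samples of the 2 groups as pairs. They shared deviations from the group means (r of 0.548 to 0.604 across genes, 6 pairs). Samples of other numbers in the same set did so too (0.549 to 0.629). Once the set means were removed the same-numbered r was -0.0604 to 0.0119. The arrays thus showed a likeness by set and none by number beyond it. Alternatives changed the block, background correction, scaling, source of the values, filter, probe rule, variance model (robust fits with statmod 1.5.0) and array weights, and left out each sample. Their use together with the replicate block was chosen after seeing the data.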

Additional observations from a re-analysis of the deposited data

Results flagged for a closer look

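NCAPD2 in the NT siRNA group was looked at again because 1 sample lay far from the others. NT siRNA replicate 3 read 11.79 on the log2 scale, whereas the other 5 samples read 11.19 to 11.37, so that the gap was 0.707 of the group's range. The same look at 28 named genes in both siRNA groups took in 56 groups. Chance alone puts about 1 in 20 groups past this limit, or 2.8 of 56, and 1 was found. Without this sample the log2 change of NCAPD2 after GATA4 siRNA was -0.22 without a block and -0.20 with the replicate block.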

How the results depend on the processing

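All values here are for GATA4 siRNA against NT siRNA unless a replicate set is named. The count of genes called (72) was 23 with median scaling (2 higher, 21 lower), 44 with no filter, 654 with the replicate block, 784 with the sets as a block and 35 to 57 with 1 sample left out. Of subunits other than NCAPG2, 1 was called (NCAPD2) with the replicate block and with the sets as a block, and 0 under the other 11 settings and with any 1 sample left out. With the replicate block 0 were called with no filter, no trend and a robust fit, where NCAPD2 stayed at -0.30 (limma adjusted p = 0.0564, 0.143 and 0.0828). It ran from -0.36 to -0.20 with 1 sample left out, which in the blocked fit in effect drops a pair. No other call on a subunit moved with the block. NCAPG2 changed by -0.59 both without background correction and on the authors' normalised values, and by -0.88 to -0.76 with 1 sample left out. NCAPH2 turned sign to 0.0018 on those 2 settings, 0.012 with median scaling and 0.063 with array weights, and ran from -0.072 to 0.068 with 1 sample left out, as SMC4 did from -0.042 to 0.0054.

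Between the sets 3 subunits were called with median scaling in place of 5, and 4 to 5 with 1 sample left out. NCAPD3 ran there from -0.029 to 0.0092 and NCAPD2 from -0.12 to 0.013. The interaction test called 2 genes without background correction, 2 on the authors' values, 1 with the mean of probes, 1 with a robust fit and 0 to 6 with 1 sample left out (6 without GATA4 siRNA replicate 4). Its value for NCAPD2 was -0.021 with array weights. With 1 sample left out it ran from -0.14 to 0.16 for NCAPD2, -0.010 to 0.070 for NCAPD3 and -0.024 to 0.089 for NCAPG. Within replicates 1 to 3, 117 genes were called with median scaling, 181 with no filter, 146 with no trend and 181 to 308 with 1 sample left out, with 0 to 1 of the other subunits. There NCAPG was -0.032 with median scaling and -0.0036 with array weights (-0.036 to 0.044 with 1 sample left out), and SMC4 was -0.013 with median scaling (-0.0027 to 0.050). NCAPG2 was -0.62 there without background correction and on the authors' values. Within replicates 4 to 6 the counts were 142, 241, 169 and 188 to 504, again with 0 to 1 of the other subunits, NCAPG ran from -0.020 to 0.094 and SMC2 from -0.074 to 0.0010. The cause of these shifts was not tested. Settings that left out a sample had fewer samples, and the setting with no filter tested more genes. The number of arrays limits the precision, and NCAPH and 7 of the 15 probes were too close to background to be read.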
